A study of Mus musculus with 8 samples.

Results

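Nodal and TGF-beta pathway genes were followed in JUN-expressing mouse embryonic stem cells (ESCs) treated with compounds against the bromodomains of BAF chromatin remodeling complexes. The genes are *Nodal*, *Tgfb1*, *Tdgf1*, *Tgfbr1*, *Lefty1*, *Lefty2*, *Smad7*, *Skil* and *Tgfbi*, found by name in the deposited table of 50600 rows. All 9 were present, and 6 of them averaged 5 TPM or more over the 8 libraries, as did 10222 genes of the whole table. *Lefty1*, *Tgfb1* and *Tgfbi* lay under that level and were tested among the 13101 genes averaging 1 TPM or more. All 9 are protein coding genes that overlap no other annotated gene in GENCODE M21.

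The cells were JUN-TetON ESCs (genotype label c-Jun_TetOn_mESC), of mixed 129SVJ, C57B6 and CBA strain background, in which doxycycline switches on a JUN transgene. They were grown without feeders in 2i/LIF, a medium that holds ESCs in the naive state by inhibiting MEK and GSK3 and supplying LIF. By the methods of the study this medium also held fetal bovine serum. All 4 groups received 2 µg/ml doxycycline, and beside it DMSO (the solvent), PFI-3 (an inhibitor of the bromodomain of the ATPase BRG1), BI-9564 (an inhibitor of the bromodomains of BRD7 and BRD9) or both compounds (P+B), for 6 h by the labels. A legend of the study gives a longer JUN induction than compound treatment, so the time of induction is in doubt. Each group had 2 libraries, and no library came from uninduced cells, so every difference below lies between cells that expressed JUN. A single engineered line was used, the sources did not settle how much of either compound P+B contained, and nothing in the labels says that the replicates were separate cultures, so the p-values measure only the spread between these libraries.

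Nodal and TGF-beta are secreted ligands of one superfamily. They bring together type I and type II receptor kinases, which phosphorylate SMAD2 and SMAD3. These enter the nucleus with SMAD4 and act on target genes together with partners such as FOXH1. Nodal also needs the co-receptor Cripto, the product of *Tdgf1*, and is held back by the secreted Lefty proteins, which are themselves targets of the pathway and close a feedback loop. Naive ESCs make Nodal, Cripto and Lefty themselves, while the TGF-beta arm is better known from fibroblasts and other adherent somatic cells, where it raises matrix genes.

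Values are TPM made whole numbers, so they are relative to gene length and can be set side by side between genes, but they keep no read depth, and counting error is unknown. Differences are given on the scale of log2(TPM + 1), which understates the change of low genes. A gene was called when its limma p-value, adjusted by Benjamini-Hochberg over all genes tested, was under 0.05 and its fold change was at least 1.5. *Jun* stood between 1569 and 3011 TPM in the 8 libraries. It read 1970 and 2877 under DMSO, 1570 and 2227 under PFI-3, 2071 and 3011 under BI-9564, and 1569 and 2159 under P+B. Within each replicate the libraries with PFI-3 thus lay below those without it. The part of this in the differences below was not tested. The summed level of 7 ESC markers was 3554 to 4721 under DMSO, 3949 to 4918 under PFI-3, 3214 to 4226 under BI-9564 and 3387 to 4331 under P+B. *Dppa5a* and *Pou5f1* were the highest of them, and single markers differed. In the same order of groups *Esrrb* averaged 72, 119, 65 and 120.5 TPM, *Klf4* 28.5, 50.5, 30.5 and 41.5, and *Sox2* 100, 105.5, 79.5 and 82. The sum of 8 fibroblast markers was 0 to 5, with *Col1a2*, *Dcn*, *Lum* and *Postn* at 0 in every library. The summed markers of the primitive endoderm were 4 to 5 under DMSO, 3 to 6 under the single compounds and 6 to 10 under P+B, with *Sox7*, *Foxa2* and *Pdgfra* at 0 throughout. Those of the primitive streak were 4 to 8, 5 to 10 and 10 to 12, with *Gsc*, *Mesp1* and *Foxa2* at 0, and those of the trophectoderm 13 to 19, 12 to 17 and 18 to 20. The P+B libraries thus lay above the DMSO libraries in the first 2 of these sums, and the part of these cells' genes in the results with P+B was not tested. In bulk RNA, fewer cells with a transcript and less transcript per cell cannot be told apart.

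The differences between replicate 1 and replicate 2 were weakly correlated across genes from group to group (Pearson's r 0.143 to 0.236). The replicate numbers were therefore taken to pair the libraries, and values from a second fit, blocked on that number, are given where they changed a call of a gene named here. Among ESC markers, 6 of 7 were higher in replicate 1 in all 4 groups. *Jun* was higher in replicate 2 in all 4 groups.

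**Figure D1:**
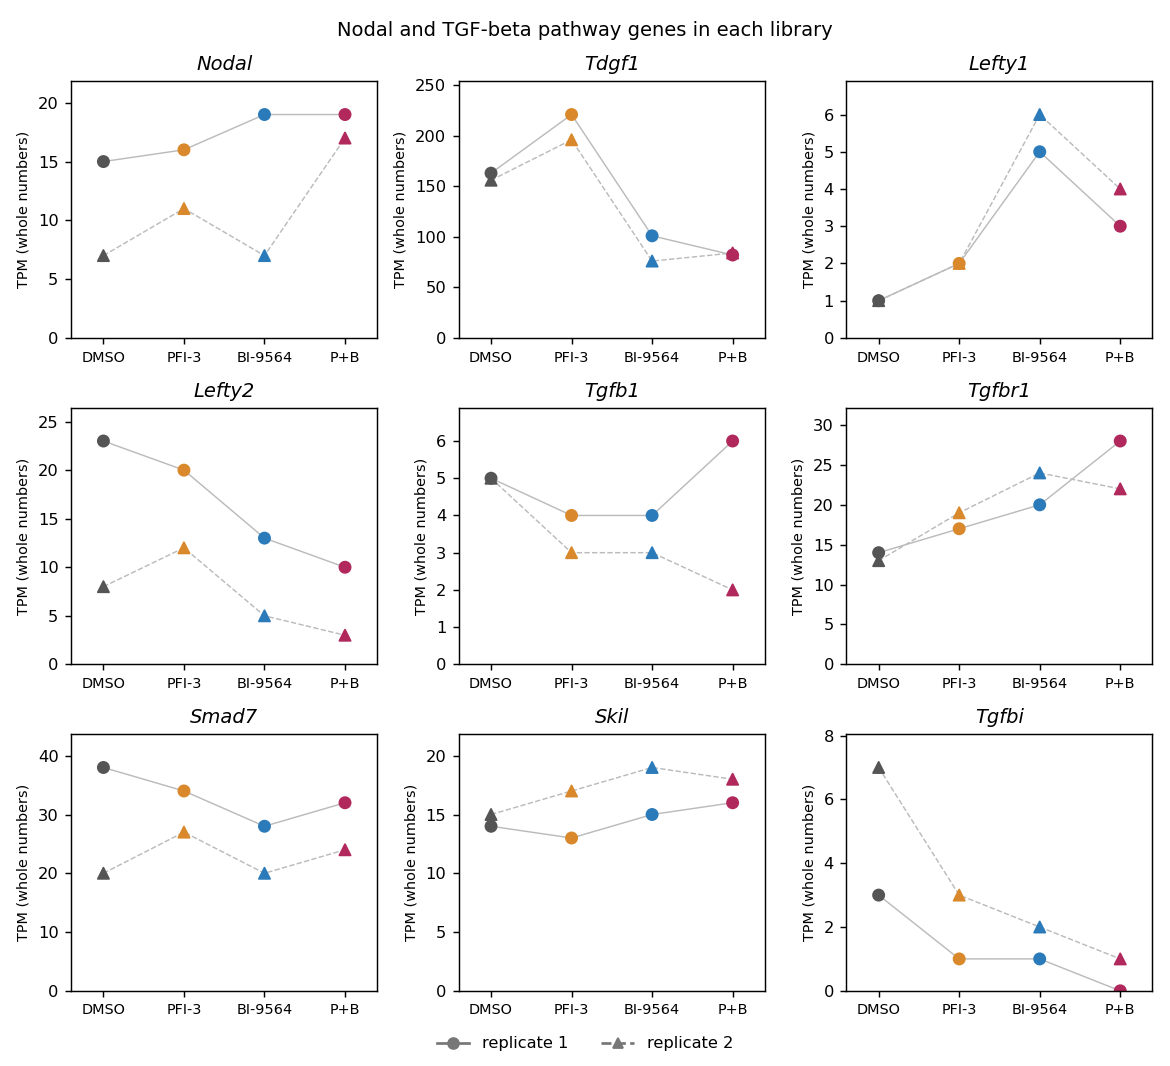
Each panel shows a gene, with TPM (whole numbers) on a linear axis from 0 and the 4 groups along the x axis. Circles joined by a solid line are replicate 1 and triangles joined by a dashed line are replicate 2. *Tdgf1* falls to between 76 and 101 TPM in the 4 libraries with BI-9564, while the lines of *Lefty2* lie apart by replicate.

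The co-receptor was the most abundant of these genes and the one with the firmest response. *Tdgf1* (chr9:110939603-110946158, minus strand, GRCm38) read 163 and 156 TPM under DMSO, 221 and 196 under PFI-3, 101 and 76 under BI-9564, and 82 and 84 under P+B. All 4 libraries that received BI-9564 lay below all 4 that did not, whether or not PFI-3 was present. With P+B it fell 1.91-fold against DMSO (log2 difference −0.93 ± 0.14 SE, 2 libraries per group, adjusted p = 0.00916). Of the 6 members tested in that comparison 2 were called, *Tdgf1* and *Tgfbr1*, beside 4.0% of all genes.

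BI-9564 alone gave nearly the same level of *Tdgf1* as P+B. Its difference from DMSO was −0.86 ± 0.14 with an adjusted p of 0.0588, so it was not called, and with the replicate block the adjusted p was 0.0205 and it was. BI-9564 against DMSO called 0 of 6 members and 0.108% of all genes in limma. An unadjusted p under 0.05 was given by 2 members (*Tdgf1* and *Tgfbr1*), beside 1523 of all 10222 genes. With the block this comparison called 1 member (*Tdgf1*) and 1.53% of all genes. P+B and BI-9564 differed by −0.08 ± 0.14 (95% confidence interval −0.39 to 0.23). None of the 6 members was called between P+B and BI-9564, nor had any an unadjusted p under 0.05, while 0.196% of all genes were called.

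Under PFI-3 alone *Tdgf1* lay on the other side of DMSO, at 0.38 ± 0.14 (95% confidence interval 0.07 to 0.69), which was not called (adjusted p = 0.642). Both PFI-3 libraries lay above both DMSO libraries. PFI-3 against DMSO called 0% of all genes in limma, although 694 of 10222 had an unadjusted p under 0.05, *Tdgf1* alone among the 6 members. Against PFI-3, *Tdgf1* was lower with P+B (−1.32 ± 0.14, adjusted p = 0.00974) and with BI-9564 (−1.24 ± 0.14, adjusted p = 0.0207). It was the single member called of 6 in each of these comparisons, which called 1.31% and 0.108% of all genes. In order of level, PFI-3 came first, then DMSO, then BI-9564 and P+B. PFI-3 and DMSO were not called apart, nor were BI-9564 and P+B.

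Averaged over the presence of PFI-3, *Tdgf1* was 2.12-fold lower with BI-9564. The 4 libraries with BI-9564 averaged 85.8 TPM and the 4 without it 184 TPM (−1.09 ± 0.10, adjusted p = 0.00221). This was the one member called of 6 in that comparison, with 3.19% of all genes called. The call remained in every one of 16 alternative settings (adjusted p 0.000606 to 0.0239), including each fit that left out a library. The call of P+B against DMSO was lost when any DMSO or P+B library was left out (adjusted p up to 0.0861), with a log2 difference between −0.97 and −0.90. The call of P+B against PFI-3 was lost likewise without any PFI-3 or P+B library (up to 0.125), and that of BI-9564 against PFI-3 without any single library (0.0562 to 0.233).

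The interaction of the compounds, the P+B difference less both single differences, was −0.46 ± 0.19 for *Tdgf1*, with an adjusted p of 1. That test called 0% of all genes in limma, with 333 of 10222 at an unadjusted p under 0.05, *Tdgf1* alone among the 6 tested members. A share of 8.86% of the 50-base words in *Tdgf1* transcripts also occurs in the pseudogene *Tdgf1-ps1*, so some of its reads could have been assigned to either.

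The 250 bases upstream of the annotated start are shown for *Tdgf1* and *Tgfbr1*, the 2 members called with P+B, from RefSeq on GRCm38.p6, 5′ to 3′ on the strand of the gene. They lie at chr9:110946159-110946408 (minus strand) and chr4:47352972-47353221 (plus strand, the first of 2 listed starts). Capitals mark matches to the motifs searched on both strands.
Tdgf1: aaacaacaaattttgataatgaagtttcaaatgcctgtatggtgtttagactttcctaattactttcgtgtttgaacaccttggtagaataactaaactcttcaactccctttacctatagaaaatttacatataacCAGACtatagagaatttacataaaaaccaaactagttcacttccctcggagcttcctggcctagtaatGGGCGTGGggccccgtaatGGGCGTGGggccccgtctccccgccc
Tgfbr1: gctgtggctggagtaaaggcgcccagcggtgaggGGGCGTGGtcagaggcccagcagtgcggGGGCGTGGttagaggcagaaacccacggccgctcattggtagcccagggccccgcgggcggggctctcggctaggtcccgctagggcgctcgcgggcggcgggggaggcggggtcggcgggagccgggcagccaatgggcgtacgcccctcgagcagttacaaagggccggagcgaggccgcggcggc

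The motifs were a SMAD word (CAGAC), the AP-1 site (TGANTCA), 4 forms of the FOXH1 site (AATCCACA, AATCAACA, AATACACA and AATAAACA), a TCF word (CTTTGAT) and a KLF word (GGGCGTGG), the last added after these sequences had been seen. *Tdgf1* held a SMAD word that begins 113 bases before the start and KLF words at 45 and 26 bases before it. *Tgfbr1* held KLF words at 216 and 188 bases before its first listed start. The window of its second listed start, not shown, held no KLF word and a SMAD word 203 bases before that start. Among 32851 promoter windows of this length, 42.2% held the SMAD word, 6.75% the AP-1 site, 3.93% a FOXH1 form, 3.21% the TCF word and 4.79% the KLF word. Neither of the windows shown held the AP-1, FOXH1 or TCF letters. *Tdgf1* fell and *Tgfbr1* rose with P+B, so the shared word went with no shared direction. These are matches of letters, and binding was not measured here. Of the 9 genes, 5 had an entry in the promoter table.

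The type I receptor rose with P+B. *Tgfbr1* (chr4:47353222-47414931, plus strand), the receptor kinase of TGF-beta, read 14 and 13 TPM under DMSO, 17 and 19 under PFI-3, 20 and 24 under BI-9564, and 28 and 22 under P+B. All 6 libraries with a compound lay above both DMSO libraries. The rise with P+B was 1.78-fold (0.83 ± 0.18, adjusted p = 0.0414) and was called. With BI-9564 alone the difference was 0.66 ± 0.18 (adjusted p = 0.175) and with PFI-3 alone 0.39 ± 0.18 (adjusted p = 0.765), neither of which was called.

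Averaged over PFI-3, the difference with BI-9564 in *Tgfbr1* was 0.55 ± 0.13. Its adjusted p was 0.0407 but the fold, 1.47, was under 1.5, so it was not called. The P+B call was close to the threshold. It was lost without any single library (adjusted p 0.0662 to 0.175), with a filter of a mean of at least 1 (0.0552), with no filter (0.0848), with only the libraries compared (0.163), with quantile normalization (0.0678) and with median centring (0.0508). The last 2, which are scalings, also moved the split of all called genes with P+B, from 131 higher and 278 lower to 81 and 305 and to 86 and 401. The log2 difference stayed above 0 in all 17 alternatives, from 0.67 to 1.00.

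The ligands did not pass. *Nodal* (chr10:61417972-61425338, plus strand) read 15 and 7 TPM under DMSO, 16 and 11 under PFI-3, 19 and 7 under BI-9564, and 19 and 17 under P+B. Both P+B libraries lay above both DMSO libraries, but DMSO and BI-9564 were spread over more than 2-fold between replicates. The difference with P+B was 0.75 ± 0.46 (95% confidence interval −0.31 to 1.80, adjusted p = 0.38), and 0.132 with the block. With BI-9564 it was 0.16 ± 0.46 and with PFI-3 0.34 ± 0.46. Leaving out a library moved the P+B difference between 0.25 and 1.25, and turned the sign of the others, which ran from −0.50 to 0.82 with BI-9564 and from −0.16 to 0.84 with PFI-3.

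*Tgfb1* (chr7:25687002-25705077, plus strand), which encodes the ligand TGF-beta 1, read 5 and 5 TPM under DMSO, 4 and 3 under PFI-3, 4 and 3 under BI-9564, and 6 and 2 under P+B. At this level a step of a single unit of rounding moves the value by a large share. It was called in no comparison, and the interval of P+B against DMSO ran from −1.39 to 0.61.

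The Lefty genes, neighbors on chromosome 1, gave opposite signs. *Lefty2* (chr1:180893108-180899103, plus strand) read 23 and 8 TPM under DMSO, 20 and 12 under PFI-3, 13 and 5 under BI-9564, and 10 and 3 under P+B. Replicate 1 was higher in every group, and within each replicate the BI-9564 and P+B libraries lay below DMSO and PFI-3. With the replicate number ignored the groups overlapped, except P+B and PFI-3. P+B against DMSO gave −1.15 ± 0.64 (adjusted p = 0.332), not called. Within pairs the differences were −1.13 and −1.17, and with the block the SE was 0.25, the adjusted p 0.0263, and the fall was called. In the fit without the block, leaving out a P+B or a DMSO library moved the difference over a range of −1.88 (without P+B replicate 1) to −0.42 (without P+B replicate 2), none of them called.

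The blocked fit called *Lefty2* in 2 more comparisons. Against PFI-3, P+B gave −1.32, with an adjusted p of 0.348 without the block and 0.0275 with it. BI-9564 present against absent gave −0.999 ± 0.451, with an adjusted p of 0.218 without the block and 0.0109 with it. The blocked fit called 3 of 6 members and 7.02% of all genes for P+B against DMSO, 2 of 6 and 3.43% for P+B against PFI-3, and 2 of 6 and 4.95% for BI-9564 present against absent.

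*Lefty1* (chr1:180935022-180938400, plus strand) read 1 and 1 TPM under DMSO, 2 and 2 under PFI-3, 5 and 6 under BI-9564, and 3 and 4 under P+B. No 2 of the 4 groups overlapped, and the level was highest with BI-9564 alone. BI-9564 against DMSO gave 1.70 ± 0.31 (adjusted p = 0.145) and P+B 1.16 ± 0.31 (adjusted p = 0.0994), neither called among genes averaging 1 TPM or more, where P+B called 2.59% of them. Of 16 alternatives for P+B, limma without a trend alone gave a call (adjusted p = 0.0359), and the others gave an adjusted p of up to 0.254. Averaged over PFI-3, *Lefty1* was 2.2-fold higher with BI-9564 (1.14 ± 0.22, adjusted p = 0.0404), a call shared by 2.22% of those genes.

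The *Lefty1* call was lost without any single library (adjusted p 0.0848 to 0.113) and, by its fold, with a pseudocount of 5 (log2 difference 0.54). Whole numbers this low carry rounding. If each value was moved by 0.5 so that the groups lay closer together, the difference was 0.72, and 1.61 if they lay further apart. P+B against BI-9564 was −0.54 ± 0.31 (95% confidence interval −1.27 to 0.20, adjusted p = 0.777). Of the 50-base words in *Lefty1* transcripts 17.9% also occur in *Lefty2*, as do 12% of those in *Lefty2* in *Lefty1*, so some reads of the pair could have been split between them.

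Neither intracellular brake was called in any comparison. *Smad7*, which blocks the type I receptor, read 38 and 20 TPM under DMSO, 34 and 27 under PFI-3, 28 and 20 under BI-9564, and 32 and 24 under P+B. The 4 groups overlapped and replicate 1 was higher in each. P+B against DMSO was 0.01 ± 0.30, with an interval of −0.69 to 0.70. *Skil* (chr3:31095058-31122577, plus strand), which encodes the SMAD co-repressor SnoN, read 14 and 15 TPM under DMSO, 13 and 17 under PFI-3, 15 and 19 under BI-9564, and 16 and 18 under P+B. Its difference with P+B was 0.21 ± 0.20 (interval −0.24 to 0.67, adjusted p = 0.576).

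*Tgfbi* (chr13:56609523-56639562, plus strand) encodes a secreted matrix protein induced by TGF-beta, and the study names it among JUN targets. It read 3 and 7 TPM under DMSO, 1 and 3 under PFI-3, 1 and 2 under BI-9564, and 0 and 1 under P+B. The order DMSO, PFI-3, BI-9564, P+B went downward or level in both replicates, and replicate 2 was higher in each group. P+B against DMSO gave −2.0 ± 0.59 (adjusted p = 0.12, not called), and each pair gave −2.0.

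With the block the adjusted p of *Tgfbi* was 0.0291 and the fall was called, in a fit that called 4.94% of genes averaging 1 TPM or more. BI-9564 present against absent gave −1.10 ± 0.42, with an adjusted p of 0.177, and of 0.0493 with the block, where 3.67% of genes were called. PFI-3 present against absent gave −0.90 ± 0.42 and was called in neither fit. With the whole numbers moved by 0.5, the difference of P+B from DMSO lay between −1.40 and −2.34.

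**Figure D2:**
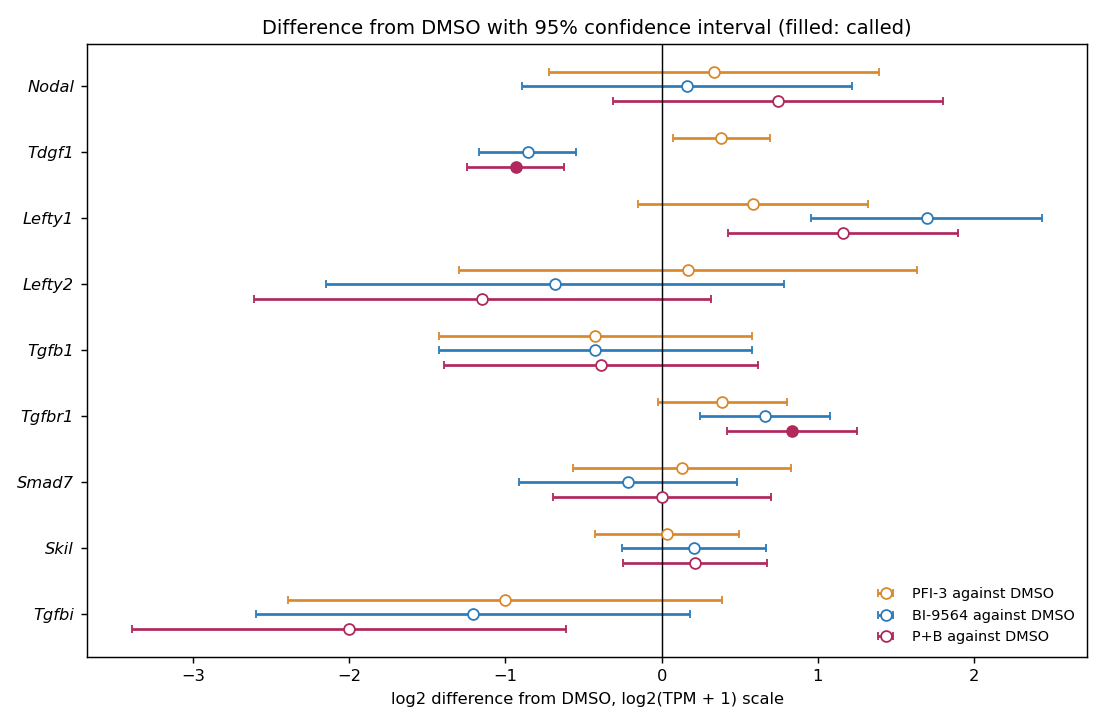
The log2 difference from DMSO of each gene is shown on the x axis (scale of log2(TPM + 1)), with 95% confidence intervals from limma without the block, in orange for PFI-3, blue for BI-9564 and crimson for P+B. Filled points are called: *Tdgf1* at −0.93 and *Tgfbr1* at 0.83, both with P+B.

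The effects of the compounds were set side by side in the fit without the block, each averaged over the other. With BI-9564, *Tdgf1* fell and *Lefty1* rose, and no other member was called. With PFI-3, 0 of 6 members were called in limma and none had an unadjusted p under 0.05, while 0.323% of all genes were called. PFI-3 differences of the 6 ran from −0.15 (*Lefty2*) to 0.46 (*Nodal*). For *Tdgf1* the PFI-3 difference was 0.15 ± 0.10 (95% confidence interval −0.07 to 0.37), and for *Lefty1* it was 0.02 ± 0.22 (−0.50 to 0.55). Both averages use the same 8 libraries. The median over the 6 tested members with P+B against DMSO was 0.11, beside 0.06 over all genes, with 4 above 0 and 2 below.

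**Figure D3:**
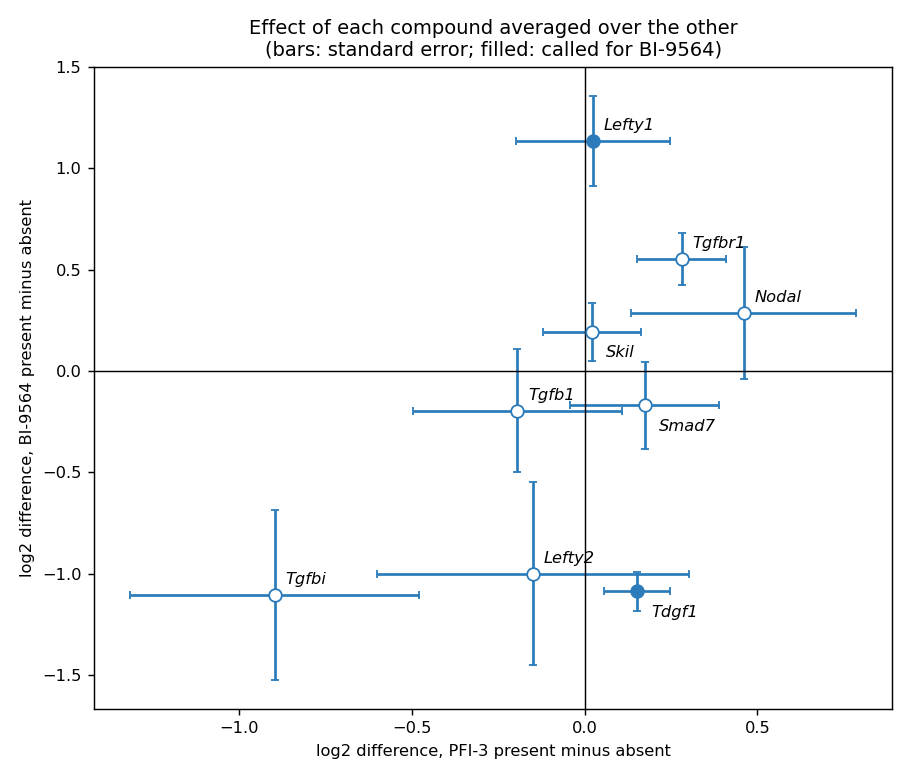
The x axis is the log2 difference between the 4 libraries with PFI-3 and the 4 without, and the y axis the same for BI-9564, with standard errors as bars. *Tdgf1* and *Lefty1*, filled because they were called for BI-9564, lie at −1.09 and 1.14 on the y axis and at 0.15 and 0.02 on the x axis.

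The replicate number itself went with several members. Replicate 1 was higher in all 4 groups for *Nodal*, *Lefty2* and *Smad7*, and replicate 2 was higher in all 4 for *Skil* and *Tgfbi*. The share of all genes with the same order in all 4 groups was not counted. In limma with the block, 3 of 6 members had an unadjusted p under 0.05, beside 2028 of all 10222 genes. *Lefty2* averaged 16.5 TPM in replicate 1 and 7 in replicate 2 (−1.20 ± 0.17, adjusted p = 0.0134), and it was the single member called of 6, beside 1.32% of all genes. The call was lost without any single library (adjusted p 0.0519 to 0.1). *Smad7* gave −0.52 ± 0.11 (adjusted p = 0.0549), with its replicates not overlapping over the 8 libraries, and *Nodal* −0.74 ± 0.20 (adjusted p = 0.0932).

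ESC markers moved with the replicate too. *Nanog* averaged 76 TPM in replicate 1 and 43 in replicate 2, and *Zfp42* 215 and 135, both called. *Jun* was 0.51 higher in replicate 2 on the log2 scale (adjusted p = 0.000382), with a fold under 1.5. What part these had in the replicate differences of *Nodal*, *Lefty2* and *Smad7* was not tested. The labels do not say what the replicate number stands for.

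Other genes of the pathway were taken from a list of 64 arranged by role. Of these, 35 averaged 5 TPM or more, 13 were at 0 in all libraries and 16 lay between. P+B against DMSO called 4 of 35, with 2 higher and 2 lower, beside 4.0% of all genes, and the median of the 35 was 0.06, as over all genes. With the block it called 5 of 35, beside 7.02% of all genes. BI-9564 present against absent called 3 of 35, beside 3.19% of all genes, and 4 with the block, beside 4.95%.

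The other comparisons between compounds called 0 of the 35 in limma without the block. For PFI-3 present against absent 3 of 35 had an unadjusted p under 0.05, beside 1106 of all 10222 genes, for PFI-3 against DMSO 3, beside 694, and neither gained a call with the block. For P+B against PFI-3 there were 10, beside 1692, for BI-9564 against DMSO 7, beside 1523, and for BI-9564 against PFI-3 7, beside 1448. With the block each of these 3 comparisons called 2 of 35, *Gdf3* and *Cdkn1a*, beside 3.43%, 1.53% and 1.48% of all genes. P+B against BI-9564 had 3 at an unadjusted p under 0.05, beside 815, and the interaction of the compounds 2, beside 333.

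Among genes listed as targets, *Cdkn1a*, which encodes the cell cycle inhibitor p21, rose with P+B from 90 and 77 to 131 and 137 TPM (0.68 ± 0.14, adjusted p = 0.0348). The part of the pathway in this rise was not tested. *Cdkn1a* read 148 and 141 with BI-9564 and 96 and 73 with PFI-3. Its adjusted p without and with the block was 0.0799 and 0.0251 for BI-9564 against DMSO, 0.0655 and 0.0189 for P+B against PFI-3, and 0.0828 and 0.0251 for BI-9564 against PFI-3. *Id1*, better known as a target of BMP, gave 0.55 ± 0.13 with a fold under 1.5. The other tested targets were not called, *Ctgf* among them (−0.30 ± 0.40).

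*Gdf3*, the single ligand tested among these other genes, signals through Cripto as Nodal does. It fell from 97 and 92 TPM under DMSO to 61 and 63 under P+B (−0.60 ± 0.12, adjusted p = 0.0312). With BI-9564 it read 67 and 54, and with PFI-3 97 and 94. Without and with the block, its adjusted p was 0.0893 and 0.0318 for BI-9564 against DMSO, 0.054 and 0.019 for P+B against PFI-3, and 0.0828 and 0.0281 for BI-9564 against PFI-3. *Gdf3* and *Tdgf1* were both called lower for BI-9564 present against absent, *Gdf3* by −0.63 ± 0.08. *Furin*, a protease that cleaves the ligand precursors, fell from 50 and 55 to 35 and 31 TPM with P+B (−0.65 ± 0.12, adjusted p = 0.0252). The related protease *Pcsk6* (0.17 ± 0.12) and the latency protein gene *Ltbp4* (−0.05 ± 0.19) were not called.

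The 4 other receptor and co-receptor genes tested were all above DMSO with P+B and none was called. Over all genes the median difference with P+B was 0.06, or −0.03 with median centring, and the share above DMSO was not counted. *Acvr1b*, the type I receptor of Nodal, read 12 and 12 TPM with DMSO and 16 and 17 with P+B (0.43 ± 0.16, adjusted p = 0.165). *Acvr2b*, a type II receptor, gave 0.34 ± 0.17, and *Eng*, the co-receptor endoglin, 0.49 ± 0.25. For BI-9564 present against absent *Eng* gave 0.62 ± 0.17 and was called with the block alone (adjusted p = 0.0717 without it and 0.0362 with it). *Tgfbr2*, which TGF-beta needs beside *Tgfbr1*, read only 1 to 3 TPM in the 8 libraries, and *Acvr1c* was listed at 0 in all of them.

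SMADs and their partners gave 0 of 10 calls with P+B in limma, and lay 5 above and 5 below 0. An unadjusted p under 0.05 was given by 3 of them, beside 2306 of all 10222 genes. Those with the highest mean level were *Foxh1* at −0.53 ± 0.24, *Drap1* at −0.30 ± 0.12 and *Tgif1* at −0.29 ± 0.19. They are named for that level, not for their p, and the 5 genes above 0 are not among them. Of 8 genes tested that were listed as negative regulators, *Smurf2*, a ubiquitin ligase that marks receptors and SMADs for breakdown, was called. It rose from 18 and 18 TPM to 28 and 35 with P+B (0.77 ± 0.16, adjusted p = 0.0335) and read 30 and 28 with BI-9564. *Usp9x* (−0.43 ± 0.15), *Trim24* (0.15 ± 0.12) and *Ppm1a* (0.14 ± 0.13) were not called, and the listed role of *Usp9x* is in doubt. *Fstl1*, listed as a secreted inhibitor of the pathway, a role that is in doubt, read 41 and 81 TPM with DMSO and 22 and 59 with P+B. It was called only with the block (adjusted p = 0.542 without it and 0.0182 with it), and was higher in replicate 2 by 1.12 ± 0.09.

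**Figure D4:**
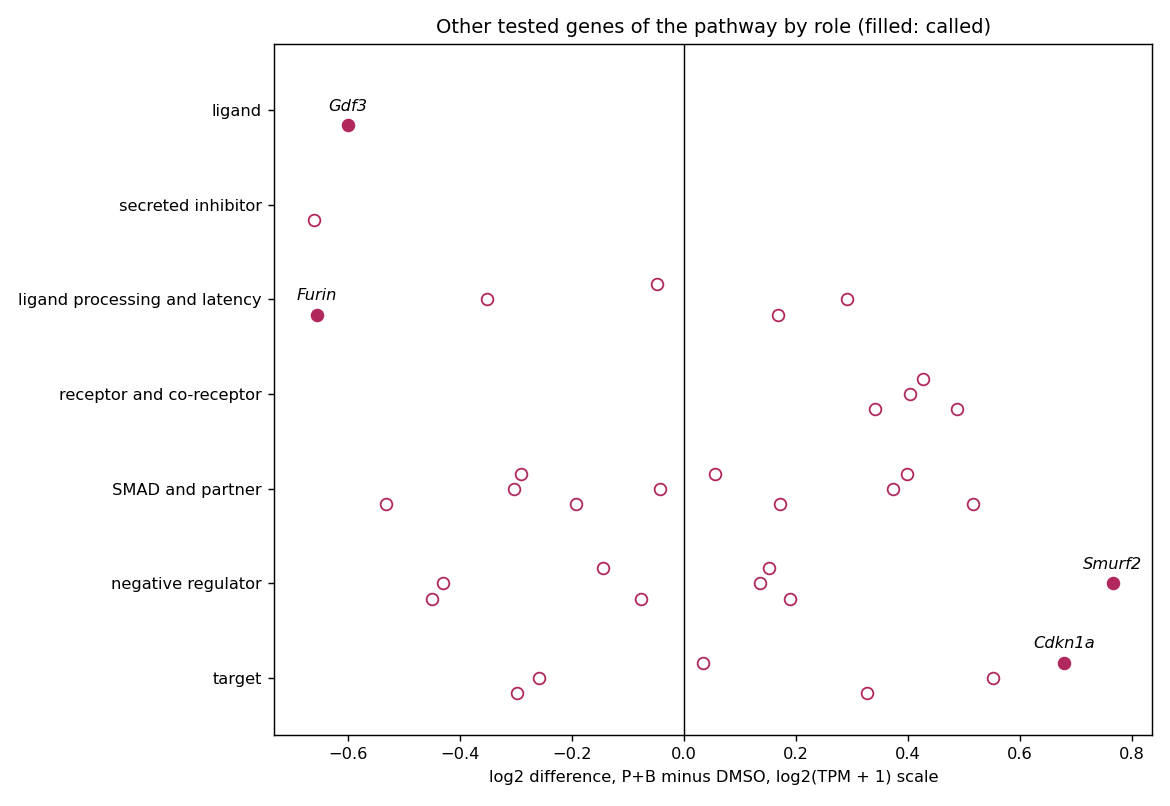
Each point is one of the 35 other pathway genes tested, placed by its role in the list on the y axis and by its log2 difference between P+B and DMSO on the x axis (scale of log2(TPM + 1)). The 4 called genes are filled and named, from *Furin* at −0.65 to *Smurf2* at 0.77.

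The genes closest to each member in pattern were found by Pearson's r of log2(TPM + 1) over the 8 libraries, which share groups and replicate numbers, so r is a description only. *Tdgf1* was followed most closely by *Nav1* (r = 0.994), *Bcat2* (0.990) and *Nfe2l2* (0.984). *Nav1* read 45 and 42 TPM under DMSO, 53 and 46 under PFI-3, 29 and 23 under BI-9564, and 24 and 24 under P+B, the same order of groups as *Tdgf1*. *Tgfbr1* was closest to *Ercc2* (0.968), *Vps33a* (0.968) and *Zfp523* (0.967).

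The genes nearest to *Lefty2* were *Wasf2* (0.984), *Tsc22d1* (0.980) and G430049J08Rik (0.979), and those nearest to *Nodal* were *Trappc1* (0.969), *Elk1* (0.965) and *Dnajc12* (0.963). *Tsc22d1* was higher in replicate 1 in every group, as *Lefty2* was, with 413 and 315 TPM with DMSO and 319 and 245 with P+B. *Smad7* was nearest to *Cct2* (0.979), and *Skil* to *Alms1* (0.975).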

How the data were processed

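RNA-seq libraries of JUN-TetON ESCs were grouped by their labels (4 groups of 2). The authors deposited a single table of TPM turned into whole numbers, treated here as a score for each gene. All values are whole and each library sums to just under the total of TPM (lowest 991574). The labels name Bowtie2 2.2.5, RSEM 1.3.0, bcl2fastq and mm10. Read depth cannot be had from TPM, and no count test was run.

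All groups were fitted together in limma 3.58.1 (R 4.3.3, eBayes with a trend) on log2(value + 1), without a block. The fit held the 10222 genes averaging 5 or more, and the 13101 averaging 1 or more for members below that. Benjamini-Hochberg adjustment ran over all genes of a comparison, and thresholds were an adjusted p of 0.05 and a fold of 1.5. With 2 libraries against 2, an exact permutation test cannot go below p = 0.333, so none is given. The differences between replicates 1 and 2 correlated across genes in all 6 pairs of groups (Pearson's r 0.143 to 0.236), and on this ground the numbers were used as pairs in a second fit with the replicate as a block. The fit without the block was tested on simulated data that held no shared replicate difference. That test does not bear on the fit with the block.

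All 9 members are named. Of the other pathway genes, those called with P+B and up to 3 per role with the highest mean are named; *Tgfbr2* and *Acvr1c* were added after their values were seen, and a further gene of the list is not reported here. The members and lists were chosen with earlier results of these data known. Positions are from GENCODE M21 on GRCm38 and promoters from RefSeq. Alternatives were the block, other pseudocounts (0.5 and 5), filters, scalings, no trend, only the libraries compared, other thresholds and leaving out each library.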

Additional observations from a re-analysis of the deposited data

How the results depend on the processing

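No difference that was called, in the main fit or under the alternative, had opposite signs in these fits. Among differences called in neither, 83 recomputed values had the other sign, *Lefty2* with PFI-3 against DMSO (−0.54 to 0.88) and *Tdgf1* with P+B against BI-9564 (−0.28 to 0.13) among them. Over 9 members and 10 comparisons, 1455 recomputed values gave 1392 on the same side of the thresholds, 56 that lost a call and 7 that gained one, 6 of them with the block and *Lefty1* with P+B against DMSO without a trend. The number of members called with P+B against DMSO went from 2 to 1 with a mean of at least 1, without a filter, with quantile normalization, with median centring and at an adjusted p of 0.01, to 0 with only the libraries compared, and to 0 to 1 when a library was left out. P+B against PFI-3 went from 1 to 2 with the replicate block, to 0 without a filter, without a trend and with only the libraries compared, and to 0 to 1 with a library left out. BI-9564 against PFI-3 went from 1 to 0 with a mean of at least 1, without a filter, without a trend, with only the libraries compared, at an adjusted p of 0.01 and with any library left out. BI-9564 against DMSO went from 0 to 1 with the replicate block. BI-9564 present against absent went from 1 to 2 with the block, with a mean of at least 1, without a filter and without a fold threshold. Replicate 2 against replicate 1, a comparison chosen after seeing the data, went from 1 to 0 without a filter, without a trend, at an adjusted p of 0.01 and with any library left out. The block changed no other call of a member than those given beside the results. Over all genes, P+B against DMSO called 409, and 718 with the block, 201 without a filter, 0 with only the libraries compared and 68 to 268 with a library left out. BI-9564 present against absent called 326, and 506 with the block, 180 without a filter and 121 to 168 with a library left out. The causes of these changes were not tested. A library left alone in its group was assumed to vary like the others. The depth of the libraries is unknown, and for *Lefty1*, *Tgfb1* and *Tgfbi*, at 0 to 7 TPM, whole numbers limit every difference.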
